A study of Rattus norvegicus with 19 samples.

Results

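Transcripts of the cell cycle and of DNA replication were read in the left ventricle of hypertensive rats, over a list of 38 genes: cyclins and their kinases, the factors that license and copy DNA, and the proteins that build and split the mitotic spindle. A gene was represented by the probe set that names it alone and has the highest mean over the 19 arrays, which was possible for 36 of the 38 genes, out of 14217 genes measured in all. Tpx2, a spindle assembly factor, was named by no probe set in the annotation used here, and the probe sets for Rrm2, the small subunit of ribonucleotide reductase, named a second gene as well; both were left out. Only 8 of the 36 genes lay above the background floor, defined as a normalized intensity above the noise limit (100.2 intensity units, a log2 level of 6.86) on at least 10 of the 19 arrays. The background for that share is 53.6% of all genes.

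The samples were 19 male Dahl salt-sensitive rats (Harlan SS/Hsd), a strain that becomes hypertensive and develops a thickened heart when fed salt, with 1 Affymetrix array per rat. All of them ate 6% NaCl from 6 weeks of age, and no rat on a normal diet was analysed here. The baseline group (4 rats) was untreated and was taken at 11 weeks of age, after 5 weeks of the diet. The other groups stayed on the diet and were taken at 15 weeks, after 4 weeks of treatment: vehicle injections (4 rats), paricalcitol, an analogue of active vitamin D, at 200 ng by intraperitoneal injection 3 times a week (4 rats), the angiotensin-converting enzyme inhibitor enalapril at 90 ug a day from an osmotic pump together with vehicle injections (3 rats), or enalapril and paricalcitol at those doses (4 rats, here called the combination). The low enalapril dose was chosen by the submitters so as not to lower blood pressure. Any step from baseline to a 15-week group holds 4 more weeks of age, of salt and of injections together, and animal numbers in the labels do not interleave between groups, so a cohort of animals cannot be told apart from its treatment. In tissue RNA, fewer dividing cells and less RNA per cell cannot be told apart either. All 13 measured cardiomyocyte markers were above the background floor, and array medians ran from 43.57 to 72.56 intensity units before normalization; the number of arrays limits the precision.

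A cell that enters division first makes D-type cyclins, which with Cdk4 release the E2F transcription factors from the retinoblastoma protein. E2F targets such as the Mcm helicase, Pcna and the nucleotide-synthesis enzymes serve DNA replication, and the later wave of Cdk1, the B-type cyclins, aurora and polo kinases and kinesins carries out mitosis. Genes of that later wave are known to be repressed in resting cells through promoter elements called CHR and read by NF-Y through CCAAT boxes. Most cardiomyocytes of the adult rat have left the cycle, while vessel, connective tissue and blood-derived cells of the ventricle can divide.

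To show how these letters lie in a promoter, the 250 bases before the annotated start are given for the first 4 listed genes that met the promoter rule. They were taken from RefSeq on GRCr8 and written 5′ to 3′ on the strand of the gene. The 4 genes were picked by the letters, so they do not show that mitotic genes share them. Aurka and Bub1 held none of the letters. The rule asked for a TTTGAA (the CHR letters) with at least 2 CCAAT boxes, or for an E2F run (TTTCGCGC or TTTGGCGC). Capitals mark every such match on either strand, so that ATTGG and TTCAAA are matches on the opposite strand. The windows lie at chr1:199952594-199952843, minus strand for Mki67, chr10:84473094-84473343, minus strand for Top2a, chr20:19265043-19265292, plus strand for Cdk1 and chr8:79981659-79981908, minus strand for Ccnb2.
Mki67: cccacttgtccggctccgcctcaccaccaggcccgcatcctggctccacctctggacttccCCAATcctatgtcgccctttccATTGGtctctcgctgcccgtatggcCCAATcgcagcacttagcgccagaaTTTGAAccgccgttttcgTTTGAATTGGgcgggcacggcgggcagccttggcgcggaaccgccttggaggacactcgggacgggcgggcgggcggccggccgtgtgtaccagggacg
Top2a: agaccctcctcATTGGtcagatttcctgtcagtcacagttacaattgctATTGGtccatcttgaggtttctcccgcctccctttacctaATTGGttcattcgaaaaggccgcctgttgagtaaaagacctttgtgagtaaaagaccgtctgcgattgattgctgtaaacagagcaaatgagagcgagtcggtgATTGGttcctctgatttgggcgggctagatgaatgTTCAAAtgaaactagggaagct
Cdk1: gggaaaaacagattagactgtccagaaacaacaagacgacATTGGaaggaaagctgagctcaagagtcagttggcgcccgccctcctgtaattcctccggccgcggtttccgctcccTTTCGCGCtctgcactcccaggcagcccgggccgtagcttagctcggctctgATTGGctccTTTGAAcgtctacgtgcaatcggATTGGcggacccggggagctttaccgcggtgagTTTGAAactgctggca
Ccnb2: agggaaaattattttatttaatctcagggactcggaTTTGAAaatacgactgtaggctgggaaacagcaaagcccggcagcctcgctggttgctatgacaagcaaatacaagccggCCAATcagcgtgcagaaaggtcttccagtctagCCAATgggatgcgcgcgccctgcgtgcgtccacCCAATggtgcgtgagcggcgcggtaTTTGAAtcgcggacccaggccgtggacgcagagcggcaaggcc
Mki67 and Top2a each held 4 CCAAT boxes in these bases, and Cdk1 and Ccnb2 held 3 each. TTTGAA occurred 2 times in Mki67, Cdk1 and Ccnb2 and 1 time in Top2a; in Mki67 1 of them shares a base with a CCAAT box. Cdk1 also carried 1 E2F run. Windows of 300 bases (250 before and 50 after the start) were found for 29 of the 38 listed genes. Among these, 12 held TTTGAA (41.4%, against 18.3% of all 33469 windows), 15 held at least 2 CCAAT boxes (51.7% against 11.2%), 8 held both (27.6% against 2.12%) and 7 held an E2F run (24.1% against 0.792%). The E2F runs lay in Cdk1, Mcm2, Mcm3, Mcm5, Mcm6, Mcm7 and Tyms, 6 of which belong to the replication genes. These matches describe letters and are not shown to be sites in this tissue.

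Between 11 and 15 weeks most of the listed genes had lower means, although no single gene passed the test. Relative to baseline, 31 of the 36 genes had a lower mean in vehicle, 30 under paricalcitol, 28 under enalapril and 28 in the combination, where 48%, 47.5%, 47.3% and 46.7% of all genes did. Higher means were found for 4, 5, 7 and 7 of the 36 (47.1%, 47.5%, 47.4% and 48.7% of all genes), and for the mean of the 15-week groups 30 were lower and 5 higher (47.2% and 49.2%). Without equalising the arrays, 34, 34, 29, 32 and, in the mean, 34 were lower, but so were 78.5%, 75.1%, 53.3%, 72.3% and 75.5% of all genes. Measured from the median of all genes in that setting, 31, 29, 29, 29 and 32 of the 36 were lower. The median difference over the 36 genes was -0.26, -0.28, -0.21 and -0.16 on the log2 scale, against 0 over all 14217 genes in each case. Of the 8 genes above the floor, 8, 8, 7 and 7 had lower means, with medians of -0.19, -0.19, -0.22 and -0.15. Among all genes above the floor 50.1%, 51.7%, 49.7% and 49.1% were lower. These comparisons share the same 4 baseline arrays and are not independent of each other. In 22 genes all of the 15-week means were below baseline, which is to say that baseline had the highest mean of the 5 groups. Baseline had the lowest mean in 0 genes. Vehicle had the lowest mean in 13 genes and the highest in 0, while paricalcitol had the lowest in 11, enalapril in 8 and the combination in 3. Shares over all genes were not counted for these ranks.

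**Figure D1:**
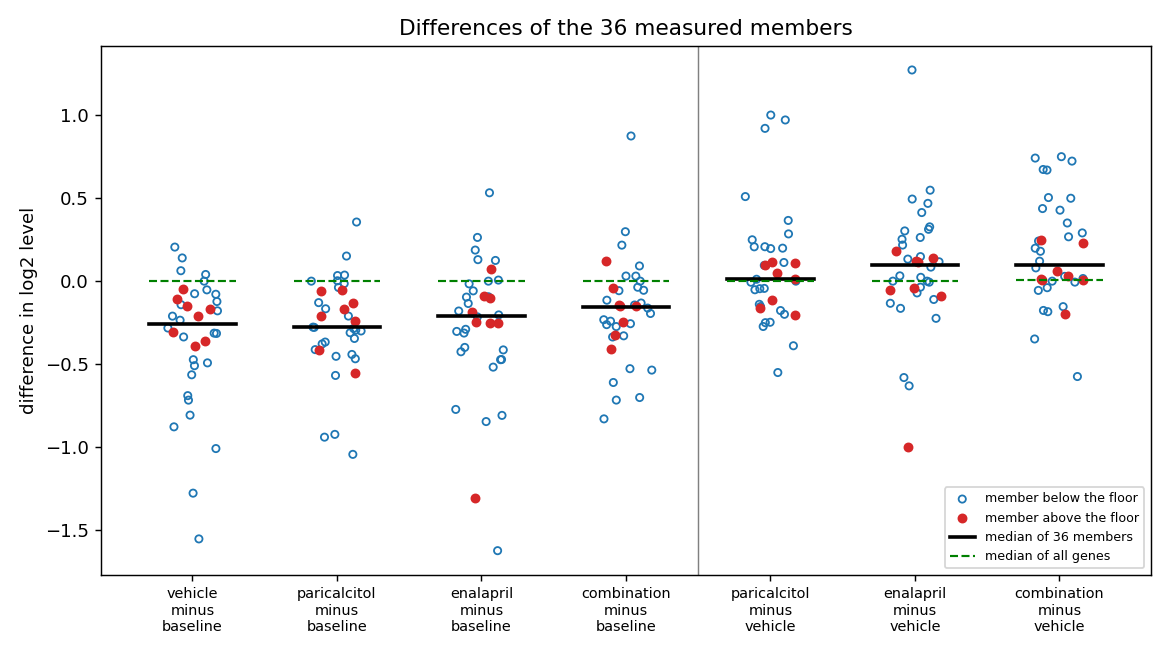
Difference in log2 level between the groups named under the axis for each of the 36 measured genes (filled, 8 genes above the background floor; open, 28 below it), with the median of the 36 (black bar) and of all genes (dashed). The black bars of the comparisons with baseline lie at -0.26, -0.28, -0.21 and -0.16, and those of the comparisons with vehicle at 0.01, 0.10 and 0.10.

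By the test, 0 of 36 genes passed in limma at an adjusted p under 0.05 in any of the 11 comparisons or in the F-test over the 5 groups. The share of all genes that passed was 0.0844% in vehicle against baseline, 0.0281% in paricalcitol, 0.0141% in enalapril and 0.162% in the combination against baseline, and 0.183% (26 genes) in the mean of all 15-week groups against baseline, with 0.127% in the F-test. At an unadjusted p under 0.05, 7 of the 36 were lower in vehicle than at baseline (5.05% of all genes were) and 0 were higher (4.15% of all genes were): Mki67, Top2a, Ccna2, Ccnb2, Mcm4, Mcm6 and Prc1. The same count was 2 lower under paricalcitol (4.01% of all genes), 2 under enalapril (4.59%), 1 in the combination (4.73%) and 3 in the mean of the 15-week groups (5.25%), with 0 higher in each (3.75%, 3.47%, 5.61% and 4.42% of all genes). These were Ccnb2 and Ccnd1 under paricalcitol, Mcm7 and Prc1 under enalapril, Ccna2 in the combination, and Ccna2, Ccnb2 and Prc1 in the mean. In both directions together the shares of all genes were 9.2%, 7.76%, 8.06%, 10.3% and 9.68% in the same order. In vehicle, 2 genes, Mcm4 and Tk1, did not overlap baseline, both lower (4.02% of all genes), and under paricalcitol and enalapril 0 did (1.76% and 4.64% of all genes were lower without overlap). Genes higher than baseline without overlap numbered 0 of 36 in vehicle, paricalcitol, enalapril and the combination (3.75%, 1.96%, 4.26% and 2.83% of all genes), and over the joined 15-week arrays 0 lay apart in either direction (0.0774% higher and 0.12% lower). The F-test had 1 of the 36, Mcm4, at an unadjusted p under 0.05, against 10.5% of all genes. In vehicle the share of low genes was above the background, but only through genes below the floor. There 7 of 28 were lower at that p, against 0 of the 8 above the floor (6.2% of all genes above the floor). The share over all genes below the floor was not counted separately. In the other comparisons the share rested on 1 to 3 genes.

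Of the genes that act early, in G1, Ccnd1 and Cdk4 were above the noise limit on all 19 arrays. Ccnd1, cyclin D1, which couples growth signals to the cycle, had log2 levels of 9.66, 9.44, 9.82 and 9.55 at baseline, 8.90, 9.39, 9.16 and 9.46 in vehicle, 9.53, 8.81, 8.41 and 9.51 under paricalcitol, 9.36, 9.27 and 9.47 under enalapril and 9.79, 9.16, 9.52 and 9.41 in the combination. Paricalcitol replicates 2 and 3 were the lowest of all 19 arrays, and every group overlapped baseline. The mean difference from baseline was -0.55 (SE 0.22; limma adjusted p = 0.572) under paricalcitol and -0.34 (SE 0.17; limma adjusted p = 0.563) over all 15-week groups, and the other 2 probe sets for Ccnd1 gave -0.485 (SE 0.21) and -0.515 (SE 0.384) in the latter comparison. For Cdk4, the kinase partner of cyclin D1, the levels were 9.07, 9.22, 9.37 and 9.20 at baseline, 9.18, 9.29, 9.003 and 9.20 in vehicle, 8.83, 9.01, 9.24 and 9.12 under paricalcitol, 9.08, 9.01 and 9.24 under enalapril and 9.14, 9.23, 9.03 and 9.30 in the combination. The groups overlapped throughout, with -0.09 (SE 0.07) over the 15-week groups and a 95% interval of -0.25 to 0.07. The remaining G1 and S-phase regulators were below the floor: Cdk2, Ccne1 and Ccne2 (the E-type cyclins that activate it) and the transcription factor E2f1 were above the noise limit on 0 of 19 arrays. Cdk2 had 5.78 ± 0.018 at baseline (SD, n = 4) and 5.55 ± 0.15 in the combination (SD, n = 4) without overlap, at -0.23 (SE 0.19; limma adjusted p = 0.72). Over the 15-week groups Cdk2 had -0.224 (SE 0.151), and Ccne2 had 0.0137 (SE 0.168). Second probe sets, above the noise limit on 0 arrays, gave -0.635 (SE 0.359) for Cdk2 and -0.0513 (SE 0.291) for Ccne2. In the combination 2 genes did not overlap baseline, Cdk2 and Aurka, both lower (2.76% of all genes).

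Of the replication genes, Pcna, the sliding clamp of DNA polymerases, had log2 levels of 9.99, 9.94, 10.19 and 10.004 at baseline, 9.91, 9.76, 9.86 and 10.004 in vehicle, 9.70, 9.78, 10.16 and 9.94 under paricalcitol, 9.65, 9.91 and 9.96 under enalapril and 9.68, 9.88, 9.97 and 10.03 in the combination. It was highest at baseline on average, with groups that overlapped, and the difference over the 15-week groups was -0.15 (SE 0.08; limma adjusted p = 0.589). Rrm1, the large subunit of ribonucleotide reductase, which makes deoxynucleotides, had levels of 8.15, 8.20, 8.43 and 8.46 at baseline, 8.30, 8.06, 8.13 and 8.31 in vehicle, 8.59, 8.20, 8.24 and 7.97 under paricalcitol, 8.48, 8.32 and 8.35 under enalapril and 8.64, 8.17, 8.19 and 8.72 in the combination. Rrm1 had about the same mean before and after: the difference was 0.01 (SE 0.11), with an interval of -0.23 to 0.25. Tk1, thymidine kinase of the salvage pathway, had levels of 7.20, 7.12, 7.50 and 7.24 at baseline, 7.11, 6.68, 7.07 and 6.76 in vehicle, 7.20, 6.98, 6.73 and 7.18 under paricalcitol, 6.77, 7.23 and 7.06 under enalapril and 7.46, 6.75, 6.11 and 7.43 in the combination. All 4 vehicle arrays were below all 4 baseline arrays for Tk1, at -0.36 (SE 0.24; limma adjusted p = 0.697), and the combination spanned the widest range. The 2 further probe sets for Tk1 were above the noise limit on 0 arrays. Tyms, thymidylate synthase, was below the floor, with 6.00 ± 0.23 at baseline (SD, n = 4) and 5.59 ± 0.45 under paricalcitol (SD, n = 4).

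**Figure D2:**
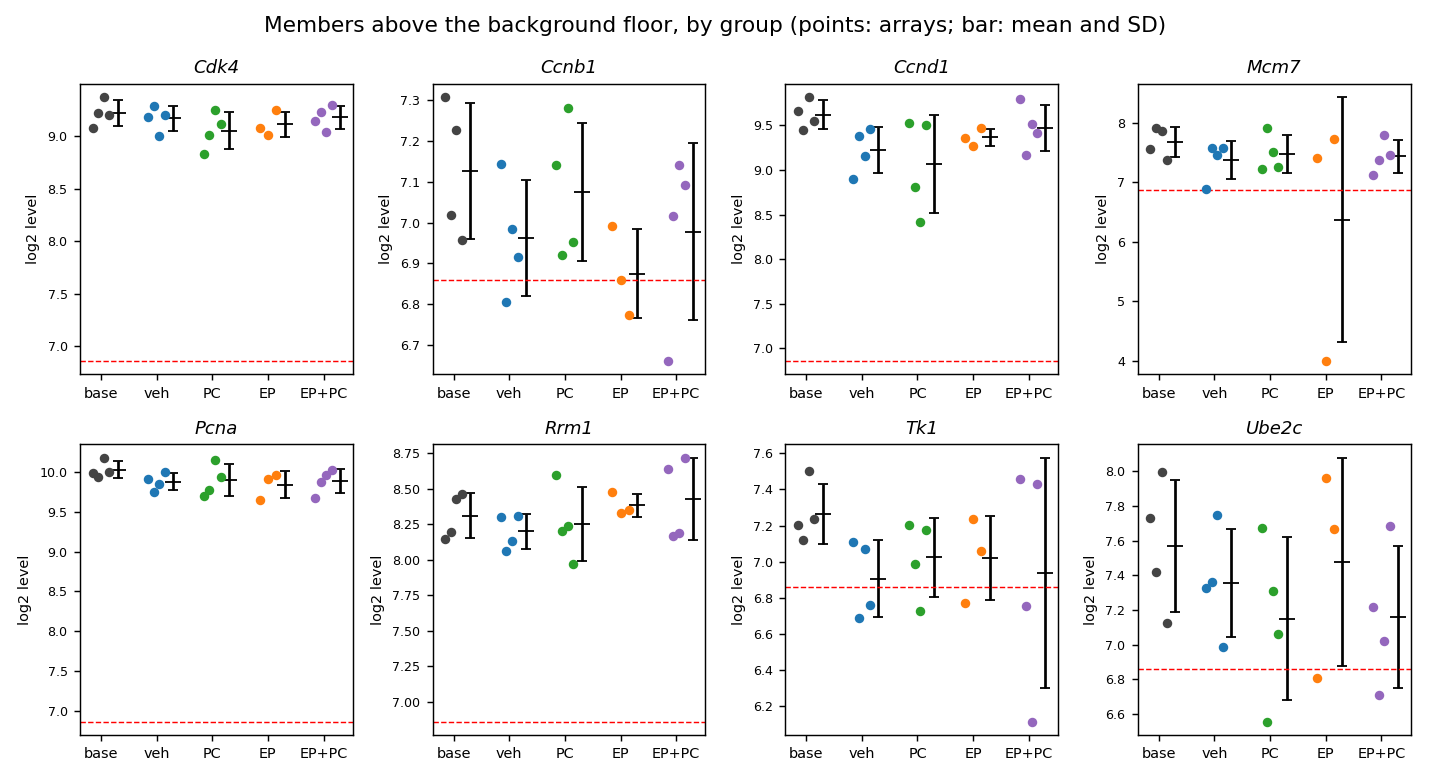
Log2 level of the 8 genes above the background floor on each array (points) with the group mean and SD (bar), where base is baseline, veh vehicle, PC paricalcitol, EP enalapril and EP+PC the combination; the dashed red line is the noise limit of 6.86. Groups overlap in most panels, and the enalapril value of Mcm7 at 4.00 is the array at the floor. The vertical axes differ between panels and do not start at 0.

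Mcm2 to Mcm7 form the ring-shaped helicase that opens DNA at replication origins. Mcm4 had log2 levels of 6.76, 7.21, 6.97 and 6.85 at baseline, 6.23, 6.67, 6.49 and 6.43 in vehicle, 6.87, 6.30, 6.88 and 6.60 under paricalcitol, 6.65, 6.63 and 7.02 under enalapril and 7.01, 6.54, 6.98 and 7.03 in the combination. The vehicle arrays were all below the baseline arrays, and the difference of -0.49 (SE 0.16; limma adjusted p = 0.301) had the smallest p among the 36 genes in that comparison. Combination replicates 1, 3 and 4 lay between 6.98 and 7.03, at 0.44 (SE 0.16; limma adjusted p = 0.541) against vehicle. For Mcm6 the levels were 6.19, 6.76, 6.77 and 5.44 at baseline, 4.79, 6.01, 5.54 and 5.59 in vehicle, 6.23, 4.98, 6.09 and 6.09 under paricalcitol, 6.22, 5.59 and 6.12 under enalapril and 6.18, 5.96, 6.30 and 6.50 in the combination. Baseline replicate 4 was low, and the difference between vehicle and baseline was -0.81 (SE 0.34; limma adjusted p = 0.466). Mcm2 had 6.54, 7.45, 7.32 and 6.72 at baseline, 6.11, 6.48, 6.65 and 6.75 in vehicle, 7.17, 6.17, 6.75 and 6.69 under paricalcitol, 6.73, 6.92 and 7.08 under enalapril and 6.61, 6.27, 6.93 and 6.90 in the combination. Vehicle and baseline overlapped for Mcm2, at -0.51 (SE 0.24; limma adjusted p = 0.546). Mcm4 and Mcm2 were just below the floor, above the noise limit on 8 and 7 arrays, while Tk1, just inside the rule, was above it on 13.

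Mcm7, above the noise limit on 18 arrays, had levels of 7.56, 7.91, 7.86 and 7.38 at baseline, 6.89, 7.57, 7.46 and 7.56 in vehicle, 7.21, 7.90, 7.50 and 7.26 under paricalcitol, 7.40, 4.00 and 7.72 under enalapril and 7.12, 7.37, 7.79 and 7.45 in the combination. Enalapril replicate 2 was at the floor for this gene (a normalized intensity below 0) and alone gave the low enalapril mean: the difference from baseline was -1.31 (SE 0.61) with it and -0.12 without it. Mcm3 had -0.23 (SE 0.16) over the 15-week groups. Mcm5 had the opposite sign, with 0.07 (SE 0.16) over the 15-week groups and 6.50 ± 0.086 at baseline (SD, n = 4) against 6.64 ± 0.19 in vehicle (SD, n = 4). Of the 6 ring subunits, 5 had lower means than baseline in every 15-week group.

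Of the genes of mitosis, Ccnb1 and Ube2c were above the background floor and the others below it. Mki67, the nuclear antigen used to stain dividing cells, had log2 levels of 6.03, 6.63, 6.43 and 4.98 at baseline, 4.21, 5.01, 5.74 and 4.00 in vehicle, 6.02, 5.47, 6.06 and 5.42 under paricalcitol, 5.47, 4.43 and 5.73 under enalapril and 6.16, 4.00, 5.56 and 6.21 in the combination. Baseline replicates 1, 2 and 3 were high, baseline replicate 4 was not, and no array was above the noise limit. The difference was -1.28 (SE 0.52; limma adjusted p = 0.452) in vehicle against baseline and 1.00 (SE 0.52; limma adjusted p = 0.577) in paricalcitol against vehicle. Top2a, the topoisomerase that untangles sister chromosomes, had 6.20, 6.37, 6.33 and 5.09 at baseline, 4.00, 5.08, 5.31 and 5.55 in vehicle, 5.997, 5.75, 6.50 and 5.58 under paricalcitol, 6.19, 5.54 and 7.05 under enalapril and 4.99, 5.55, 6.37 and 5.73 in the combination. Vehicle had the lowest mean, and all 4 paricalcitol arrays were above all 4 vehicle arrays. Top2a had -1.01 (SE 0.41; limma adjusted p = 0.46) in vehicle against baseline, 0.97 (SE 0.41; limma adjusted p = 0.447) in paricalcitol against vehicle and 1.27 (SE 0.45; limma adjusted p = 0.791) in enalapril against vehicle. Its level was above the noise limit on 1 array, enalapril replicate 3.

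Cdk1, the kinase that triggers mitosis, had levels of 6.84, 6.82, 6.40 and 4.34 at baseline, 4.57, 5.47, 5.38 and 5.47 in vehicle, 4.34, 5.25, 6.33 and 4.80 under paricalcitol, 5.69, 4.18 and 5.90 under enalapril and 5.06, 4.34, 5.62 and 6.93 in the combination. High and low values occurred in the same group at baseline, under paricalcitol and in the combination, and the difference over the 15-week groups was -0.82 (SE 0.51). Ccnb1, cyclin B1, its partner, was above the floor, with 7.31, 7.02, 7.23 and 6.96 at baseline, 7.14, 6.81, 6.99 and 6.91 in vehicle, 7.14, 6.92, 7.28 and 6.95 under paricalcitol, 6.99, 6.86 and 6.77 under enalapril and 6.66, 7.02, 7.14 and 7.09 in the combination. The groups overlapped for Ccnb1, at -0.16 (SE 0.10) over the 15-week groups. A second probe set for Ccnb1, above the noise limit on 0 arrays, gave -0.632 (SE 0.436) there. Ccnb2, cyclin B2, had 6.60, 6.90, 6.56 and 5.81 at baseline, 5.39, 5.97, 5.68 and 6.07 in vehicle, 5.35, 5.59, 6.08 and 5.09 under paricalcitol, 6.12, 5.81 and 6.06 under enalapril and 5.96, 5.93, 5.74 and 7.20 in the combination. Its baseline replicates 1 to 3 and combination replicate 4 were high, and the difference was -0.94 (SE 0.31; limma adjusted p = 0.495) for paricalcitol against baseline. Ccna2, cyclin A2, which acts in S phase and at mitotic entry, had -0.58 (SE 0.24; limma adjusted p = 0.446) over the 15-week groups.

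Ube2c, the ubiquitin carrier of the anaphase-promoting complex, was above the floor, with 7.73, 7.42, 7.998 and 7.12 at baseline, 7.33, 7.36, 7.75 and 6.99 in vehicle, 7.67, 6.56, 7.31 and 7.06 under paricalcitol, 6.81, 7.96 and 7.67 under enalapril and 7.22, 6.71, 7.02 and 7.69 in the combination. All groups overlapped for it, at -0.28 (SE 0.24). Prc1, which bundles the central spindle, had the smallest p among the 36 genes over the 15-week groups, at -1.26 (SE 0.47; limma adjusted p = 0.378), and was chosen for mention after its values were seen. Its levels were 6.56, 6.53, 6.26 and 4.77 at baseline, 4.00, 4.45, 4.00 and 5.45 in vehicle, 5.34, 4.80, 5.79 and 4.00 under paricalcitol, 4.14, 4.00 and 5.07 under enalapril and 4.98, 4.00, 4.87 and 6.94 in the combination. Baseline replicates 1 to 3 and combination replicate 4 were high, and 4 vehicle arrays lay from the floor of 4 to 5.45. Birc5, survivin, of the chromosomal passenger complex, had 5.68, 4.00, 4.00 and 4.28 at baseline, 4.55, 4.00, 5.13 and 5.10 in vehicle, 4.00, 4.00, 4.58 and 4.00 under paricalcitol, 4.79, 4.00 and 6.28 under enalapril and 5.24, 6.61, 5.61 and 4.00 in the combination. Birc5 was at the floor on 8 arrays and high on single arrays of several groups, and it had 1.22 (SE 0.55; limma adjusted p = 0.525) in the combination against paricalcitol.

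**Figure D3:**
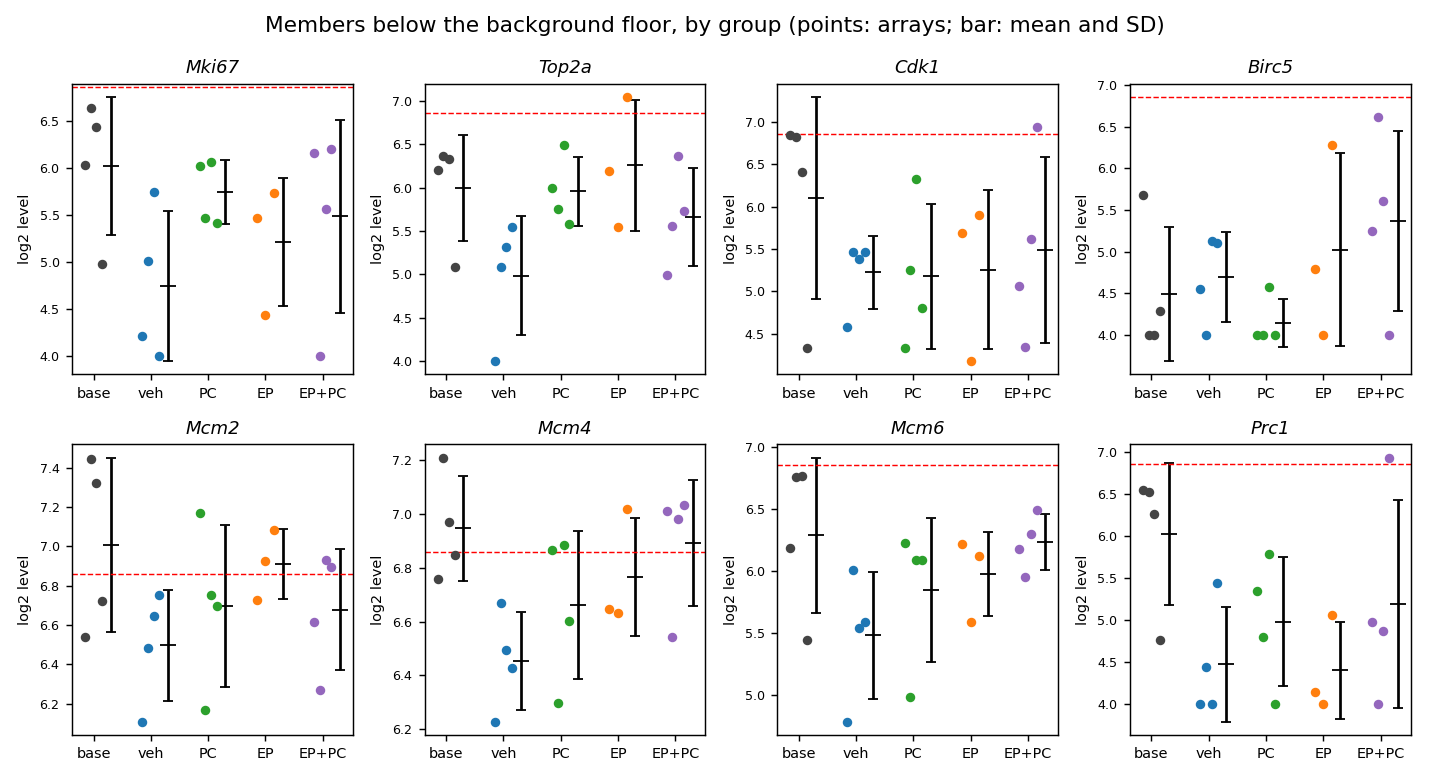
Log2 level of 8 genes below the background floor on each array (points) with the group mean and SD (bar), with the groups as in the plot of brighter genes; the dashed red line is the noise limit of 6.86 and 4 is the lowest possible value. Within baseline, Mki67, Top2a, Cdk1 and Prc1 have 3 high arrays and 1 low one, and Birc5 is at 4.00 on 2 of the baseline arrays. The vertical axes differ between panels and do not start at 0.

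The other mitotic members were described by their means. Aurka, the kinase of spindle poles, had 5.29 ± 0.23 at baseline (SD, n = 4) and 4.57 ± 0.37 in the combination (SD, n = 4). Aurkb and Plk1, kinases of chromosome alignment and cell division, had -0.12 (SE 0.39) and -0.37 (SE 0.28) over the 15-week groups. Bub1, of the spindle checkpoint, had -0.33 (SE 0.26), and Bub1b, of the same checkpoint, lay at the floor on all 19 arrays and gave no comparison. Kif20a, a kinesin of cytokinesis, was above 0 on only 5 arrays, with its highest value, 6.02, on combination replicate 4. Kif11, the kinesin that separates spindle poles, had -0.08 (SE 0.12), and Nusap1, a microtubule binder, -0.07 (SE 0.21). A second probe set for Kif11 gave 0.027 (SE 0.0327), and that for Nusap1 had a mean at the floor of 4. Cenpf, of the kinetochore, had -0.03 (SE 0.25) and Cdca3, a trigger of mitotic entry, -0.29 (SE 0.23). Cdc20, the activator of the anaphase-promoting complex, had 0.00 (SE 0.19) with the probe set used. The other 4 probe sets for Cdc20 disagreed in direction, from -0.855 (SE 0.393; limma adjusted p = 0.527 over all probe sets) to 0.525 (SE 0.113; limma adjusted p = 0.1), and none of the 5 was above the noise limit on more than 1 array.

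Among the 15-week groups, the drugs were compared with vehicle and with each other. Against vehicle, 16 of the 36 genes had lower means under paricalcitol (45.9% of all genes), 13 under enalapril (46.6%) and 9 in the combination (44.6%), and 19, 21 and 26 had higher means (49.3%, 48.4% and 50.9%). The medians were 0.01, 0.10 and 0.10. Without combination replicate 4, 17 had lower means in the combination, and without equalising the arrays 5 had lower means under enalapril, as did only 19.2% of all genes. Measured from the median of all genes in that setting, 16 of the 36 were lower. In limma 0 passed in each (0.0141%, 0% and 0.00703% of all genes). At an unadjusted p under 0.05, 1 of the 36 was higher under paricalcitol (4.84% of all genes), 1 under enalapril (2.71%) and 2 in the combination (4.2%), with 0 lower in each (4.8%, 2.93% and 3.48%). In both directions together the shares of all genes were 9.64%, 5.64% and 7.68%. Top2a was the gene in the first 2, and Mcm4 and Mcm6 were those in the combination. Groups did not overlap for Top2a under paricalcitol (higher, 2.5% of all genes) and, under enalapril, for Rrm1 and Kif11 (higher, 4.33%) and E2f1 (lower, 4.2%). Paricalcitol had 0 genes lower than vehicle without overlap (2.55% of all genes), and the combination 0 higher (2.31%) and 0 lower (1.92%). The 3 comparisons share the vehicle arrays, whose means were the lowest of the 5 groups in 13 of the 36 genes. Paricalcitol was lowest in nearly as many, 11, enalapril in 8 and the combination in 3. As the share of all genes was not counted for these ranks, they have no background to be read against.

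Adding enalapril to paricalcitol gave 14 lower means of 36 (47.2% of all genes) with 21 higher (48.2%) and a median of 0.04, and adding paricalcitol to enalapril gave 12 lower (45.5%), 23 higher (49.8%) and a median of 0.09. Without combination replicate 4 the first count of lower means was 23. The second was 19 without enalapril replicate 2 and 20 if the arrays were not equalised, where 69.2% of all genes were lower and 14 of the 36 lay below the median of all genes. In neither did any of the 36 lie apart (2.04% of all genes higher and 1.39% lower in the first, 2.77% and 2.17% in the second). In limma 0 of 36 passed in either comparison (0% of all genes in both), with 2 higher (Birc5 and Ccnb2) and 0 lower at an unadjusted p under 0.05 in the first (5.13% and 3.91% of all genes, 9.05% in all) and 0 in the second (3.02% higher and 2.28% lower, 5.3% in all). The interaction of both drugs was below 0 in 17 and above 0 in 18 of the 36 (47.5% and 48.6% of all genes), with 0 passing in limma (0% of all genes) and 2 at an unadjusted p under 0.05 (6.94%, with 3.14% lower and 3.8% higher): Top2a, at -1.57 (SE 0.61; limma adjusted p = 0.615), and E2f1, at 0.88 (SE 0.39; limma adjusted p = 0.686). Ccnd1 had 0.41 (SE 0.22) in the combination against paricalcitol, with an interval of -0.05 to 0.87, and Pcna had -0.01 (SE 0.10), with -0.23 to 0.21.

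On each array the genes above their own median over the 19 arrays were counted. At baseline that count was 25, 28, 29 and 13 of 36 on replicates 1 to 4, and in vehicle 10, 11, 12 and 15. It was 19, 7, 26 and 7 under paricalcitol, 14, 8 and 25 under enalapril and 13, 8, 14 and 27 in the combination. Paricalcitol replicate 3, enalapril replicate 3 and combination replicate 4 had counts at least as high as baseline replicate 1, but below baseline replicates 2 and 3. Baseline replicate 4 had a count within the vehicle range. As a share the members ran from 19.4% to 80.6% of 36 over the arrays. Over the 6081 varying genes below the background floor it ran from 42.1% to 45.9%; a share over so many genes varies less than one over 36, so these ranges cannot be compared. On combination replicate 4, Cdk1 was at 6.93, Prc1 at 6.94, Ccnb2 at 7.20 and Kif20a at 6.02, each the highest of the 19 arrays.

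**Figure D4:**
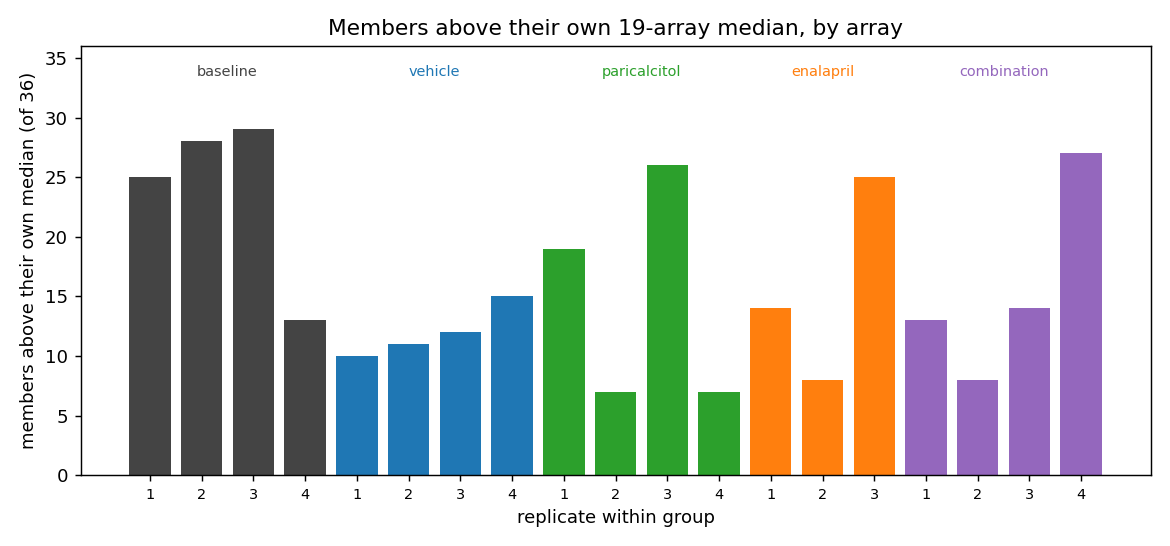
Number of the 36 measured genes above their own median over the 19 arrays (vertical axis, from 0 to 36) for each array, in the order of groups and replicates. Baseline replicates 1 to 3, paricalcitol replicate 3, enalapril replicate 3 and combination replicate 4 have 25 to 29, and the 4 vehicle arrays have 10 to 15.

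**Figure D5:**
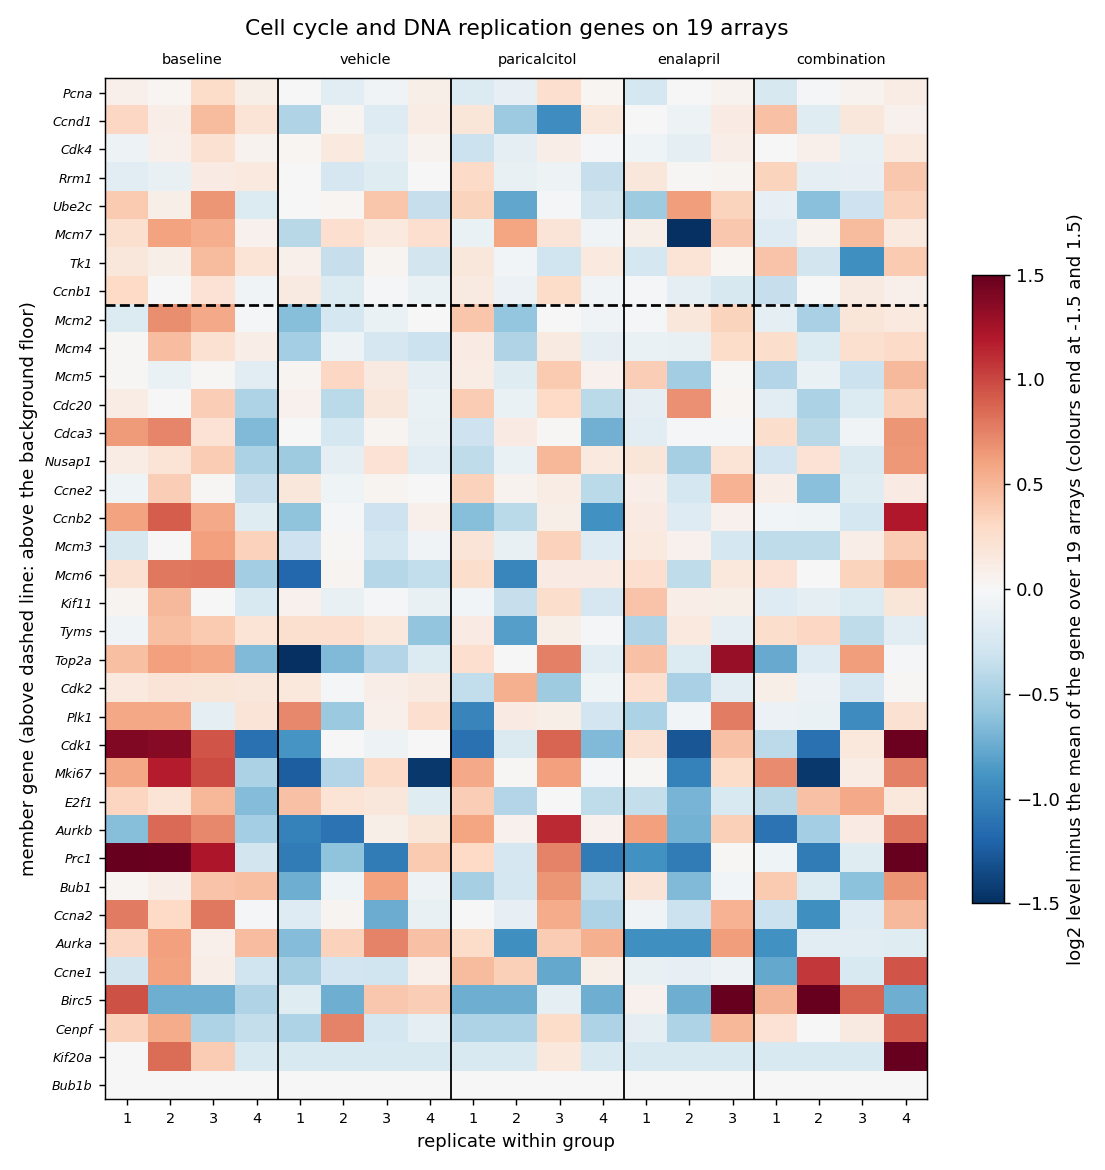
Log2 level of each measured gene minus its mean over the 19 arrays (colour, from -1.5 blue to 1.5 red), with arrays by group and replicate in columns and the 8 genes above the background floor over the dashed line. The red columns are the arrays with the high counts. The deepest colours, red or blue, are in Cdk1, Mki67, Prc1, Top2a and Birc5, in Mcm7 on enalapril replicate 2 and in Kif20a on combination replicate 4. Birc5 did not follow the counts. Among the high-count arrays it was 5.68 on baseline replicate 1 and 6.28 on enalapril replicate 3, but 4.58 on paricalcitol replicate 3. It was at the floor on baseline replicates 2 and 3 and combination replicate 4, and highest, at 6.61, on combination replicate 2, with a count of 8. Bub1b is at the floor throughout.

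Markers of other cell types are given beside this pattern. Over the 15-week groups against baseline, 8 of 10 fibroblast markers, 8 of 11 endothelial markers, 10 of 12 smooth muscle and pericyte markers and 14 of 15 macrophage markers had lower means, with medians of -0.23, -0.08, -0.08 and -0.11. Lower means were found for 47.2% of all genes and 49.9% of all genes above the floor. At an unadjusted p under 0.05 in limma, 3, 2, 3 and 0 markers of these lists were lower (5.25% of all genes). At that p 0 were higher (4.42%). Single groups differed from the 15-week mean. Under paricalcitol 9 of 12 smooth muscle and pericyte markers were higher than at baseline (47.5% of all genes). All 12 of 12 were higher than in vehicle (49.3%). Under enalapril 10 of 15 macrophage markers were higher than at baseline (47.4%). Summed macrophage marker intensity ran from 6357 to 11220 at baseline, 6409 to 8104 in vehicle, 4957 to 10590 under paricalcitol, 6873 to 9977 under enalapril and 4254 to 10430 in the combination. The macrophage score is the mean over 15 markers of the log2 level minus the mean of the gene over all arrays. It was 0.40 on paricalcitol replicate 3, 0.37 on enalapril replicate 3 and 0.44 on combination replicate 4. On baseline replicates 1, 2 and 3 it was -0.17, -0.19 and 0.32. Arrays with low counts of listed genes also had high scores. The score was 0.48 on baseline replicate 4 (a count of 13), the highest of the 19 arrays, and 0.33 on paricalcitol replicate 4 (a count of 7). The macrophage markers Itgam, Adgre1 and Cx3cr1 were never above the noise limit. Summed fibroblast marker intensity ran from 35200 to 44290 at baseline, 31130 to 33800 in vehicle, 28320 to 44530 under paricalcitol, 28390 to 34820 under enalapril and 29240 to 37430 in the combination. For T cells, 8 of 11 markers, the Cd3 chains among them, were never above the noise limit, and 5 of 11 were lower. All 4 neutrophil markers were higher at 15 weeks, with a median of 0.86, but only 1 was above the background floor, and Camp and Mmp8 were never above the noise limit. The summed intensity of the 4 ran from 103 to 282.3 at baseline, 309 to 613.7 in vehicle, 256.3 to 1811 under paricalcitol, 368.7 to 842.1 under enalapril and 122.4 to 926.9 in the combination. Of the red cell markers 5 of 6 were lower, of the B cell markers 2 of 3, of the adipocyte markers 3 of 4 and of the cardiomyocyte markers 5 of 13. Never above the noise limit were 2 of the red cell, 2 of the B cell and all 4 of the adipocyte markers. Red cell scores ran from -0.98 to 0.87 under paricalcitol and from -0.97 to 0.61 in the combination. The part of any of these cell types in the cell cycle pattern was not tested.

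A wider list held other genes of the cycle, 104 of 120 with a probe set, of which 29 were above the background floor. Over the 15-week groups against baseline, 66 had lower and 34 higher means (47.2% and 49.2% of all genes), with a median of -0.07, and 12 were lower and 2 higher at an unadjusted p under 0.05 (5.25% and 4.42% of all genes). In limma 0 of 104 passed in that or any other comparison. Among the 29 above the floor 16 were lower in that mean, with a median of -0.01 (49.9% of all genes above the floor were lower). In vehicle against baseline 71 of 104 were lower (48% of all genes), with a median of -0.11, and 18 of the 29 (50.1% of all genes above the floor). Under paricalcitol and in the combination 14 of the 29 were lower and 15 higher. Those with the smallest p were Kif18b, a kinesin, at -0.58 (SE 0.13; limma adjusted p = 0.116), which was near the floor of 4 in every 15-week group, Plk4, the kinase of centriole duplication, at -0.46 (SE 0.14; limma adjusted p = 0.277), Prim2, of the primase, at -0.37 (SE 0.12; limma adjusted p = 0.321), and Cks1b, which binds cyclin-dependent kinases, at 0.21 (SE 0.07; limma adjusted p = 0.336). Cks1b was above the noise limit on all 19 arrays and opposite in direction, with means from 9.21 at baseline to 9.61 under enalapril, and it had the smallest F-test p of the list (limma adjusted p = 0.242). Espl1, separase, followed Kif18b and Prim2 by the F-test (limma adjusted p = 0.339), with -0.45 (SE 0.23; limma adjusted p = 0.559) over the 15-week groups.

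Inhibitors and repressors of the cycle were read from a list of 22, of which 21 had a probe set. Over the 15-week groups 15 had lower and 6 higher means (47.2% and 49.2% of all genes), with a median of -0.08, and 0 passed in limma. At an unadjusted p under 0.05, 1 of them (Lin9) was lower and 0 were higher (5.25% and 4.42% of all genes). Under enalapril against baseline 5 were lower at that p (Cdkn1b, Cdkn2d, Ccng2, Lin9 and Lin52; 4.59% of all genes) and 1 was higher (Cdkn1a; 3.47%), named after their values were seen. Cdkn1a, which encodes the p21 inhibitor of cyclin-dependent kinases, had means of 9.999 ± 0.15 at baseline (SD, n = 4), 10.04 ± 0.12 in vehicle (SD, n = 4), 10.37 ± 0.25 under paricalcitol (SD, n = 4), 10.53 ± 0.2 under enalapril (SD, n = 3) and 9.99 ± 0.34 in the combination (SD, n = 4). It had the smallest F-test p of the list (limma adjusted p = 0.332), with 0.49 (SE 0.17; limma adjusted p = 0.791) in enalapril against vehicle and -0.53 (SE 0.17; limma adjusted p = 0.904) in the combination against enalapril. Lin9, of the complex that represses cell cycle genes in resting cells, had -0.45 (SE 0.16; limma adjusted p = 0.355) over the 15-week groups, and Rbl1, a relative of the retinoblastoma protein, -0.30 (SE 0.16; limma adjusted p = 0.584). Btg1, an antiproliferative factor, had -0.09 (SE 0.05; limma adjusted p = 0.661) and Rb1, the retinoblastoma gene, 0.06 (SE 0.08; limma adjusted p = 0.889).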

How the data were processed

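Left ventricular RNA of 19 rats was measured on 1 Affymetrix array each, from 5 ug of total RNA with integrity numbers above 9, per the labels' protocols. Each deposited file holds 1 linear intensity for every probe set, made by the authors with software not given in the sources used here. From 16% to 18.2% of an array's intensities were negative, as a subtracted background leaves them. Here the deposited intensities were quantile normalized, negative ones were raised to 0, 16 was added and log2 taken, which puts the floor at 4 and understates differences of faint genes. Of 31099 probe sets, 20826 named 1 gene, 436 several and 9780 none, with 57 control probe sets. The platform annotation gave the names, and each gene kept its probe set with the highest mean. The noise limit is the size of the 1st percentile of all probe sets, which is negative.

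Group means were fitted over all 19 arrays with limma 3.58.1 in R 4.3.3 (empirical Bayes with a trend), and p-values were adjusted by Benjamini-Hochberg over 14217 genes. Each difference subtracts the second group named from the first, and SE is its standard error in limma; "all 15-week groups" is the unweighted mean of 4 group means. The procedure was tested on simulated data. The p-values weigh each group difference against a spread between these rats that limma pooled over the groups and moderated across genes. The members and gene lists were chosen with earlier results of these data known, and values on single arrays were given for a fixed panel of 12 genes and for genes above the floor; Prc1 and Ccnb2 were added after their values were seen. The other lists gave up to 4 genes by p in the 15-week mean and 4 by the F-test.

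Replicate numbers are shared by the groups. Deviations of same-numbered arrays from their group means were correlated, each above 0.1, only between paricalcitol and the combination (0.315 to 0.555), or 1 of the 10 possible pairings; the labels do not say that numbers pair rats. A replicate block was run as an alternative, as were other scalings, a filter on dim genes, no trend, array weights, only the groups compared, other uses of probe sets, other pseudocounts, a covariate for red cell markers and omission of single arrays.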

Additional observations from a re-analysis of the deposited data

Results flagged for a closer look

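In groups of 4, an array was marked where its gap to the nearest of the others took up more of the group's range than Dixon's limit at the 95% level allows. Of 64 groups of values tested (15 genes and the mean over all members), 7 were marked, 1 of them only because of the floor; chance marks about 1 in 20. Top2a was 5.09 on baseline replicate 4, against 6.20 to 6.37 on the others. Cdk1 was 4.57 on vehicle replicate 1, against 5.38 to 5.47. Mcm7 was 6.89 on the same vehicle array, against 7.46 to 7.57. Mcm6 was 4.98 on paricalcitol replicate 2, against 6.09 to 6.23. Mcm4 was 6.54 on combination replicate 2, against 6.98 to 7.03. Birc5 was 5.68 on baseline replicate 1, against 4.00 to 4.28, with 2 of those arrays at the floor. Birc5 was also marked at 4.58 on paricalcitol replicate 3, but there the other 3 arrays had intensities below 0 and were all set to the floor, so that mark follows from the floor and shows no gap. The group of 3 enalapril arrays was too small for this limit, although Mcm7 was 4.00 on its replicate 2 and 7.40 and 7.72 on the others.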

How the results depend on the processing

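No listed gene passed in limma in any comparison or under any alternative or omission run, the replicate block included. In the main fit and with the replicate block this was 0 of 36. The filter on dim genes tested only listed genes with a mean above the median of all genes, a log2 level of 7.07. The run on single probe sets tested every probe set of the 36 genes. The count of lower genes over the 15-week groups stayed between 30 and 34 under the other settings and between 27 and 33 with an array left out, and their median between -0.40 and -0.14 and between -0.32 and -0.17. In the deposited values without equalisation the median of all genes moved by -0.20 in vehicle, -0.17 in paricalcitol, -0.14 in the combination and -0.14 in the 15-week mean against baseline, 0.17 in enalapril against vehicle, -0.11 in the combination against enalapril and -0.14 in the interaction. There the median over the genes above the floor was -0.45, -0.40, -0.34 and -0.40 against baseline, and 0.24, -0.11 and -0.15 in the last 3. Over all 36 it was -0.48 in vehicle against baseline, and 5 and 20 genes were lower in enalapril against vehicle and the combination against enalapril. With arrays scaled to a common median, the median above the floor was -0.10 in paricalcitol against vehicle and 0.14 in the interaction, and with each probe set singly 0.13 in the combination against paricalcitol. Omissions moved it from -0.29 (without baseline replicate 4) to -0.11 in vehicle and from -0.25 to -0.11 (without enalapril replicate 1) in enalapril against baseline, and from -0.049 to 0.11 (without combination replicate 3) in the combination against paricalcitol. Lower genes numbered 9 to 17 in the combination against vehicle and 13 to 23 against paricalcitol (17 and 23 without combination replicate 4), and 10 to 19 against enalapril (19 without enalapril replicate 2). An intensity above 0 on at least 10 arrays held for 34 of 36 genes, and one above the noise limit on all arrays for 4. Over all genes, the count past the threshold depended on the setting: 12 in vehicle against baseline (0 to 160), 4 in paricalcitol (0 to 8), 2 in enalapril (0 to 19), 23 in the combination (1 to 70), 26 in the 15-week mean (3 to 96), 2 in paricalcitol against vehicle (0 to 214), 0 in the combination against paricalcitol (0 to 65), 0 in the interaction (0 to 8) and 18 in the F-test (0 to 100). With the replicate block these counts were 19, 7, 0, 23, 11, 14, 1, 1 and 14. The cause was not tested. The listed genes below the noise limit are the ones the arrays measure least well.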
